A study of Mus musculus with 6 samples.

Results

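The high mobility group (HMG) genes examined here encode abundant non-histone proteins of chromatin, and the account covers E2F1 binding at 9 of them, as listed by chromatin immunoprecipitation and sequencing (ChIP-seq): Hmgn1, Hmgn2, Hmgn3, Hmgn5, Hmgb1, Hmgb2, Hmgb3, Hmga1 and Hmga2. They are 9 of the 21887 protein-coding genes on the assembled chromosomes of the RefSeq table for GRCm38.p6. The genes were chosen with the peak lists known, because Hmgn2 carries one of the strongest E2F1 peaks. A peak was taken to belong to a gene when it lay inside the gene or within 1000 bp of it. By that rule the genes held 9 of the 7836 peaks of E2F1 replicate 1, 7 of the 8027 peaks of E2F1 replicate 2, 0 of the 70 peaks of EV replicate 1 and 0 of the 358 peaks of EV replicate 2. Presence, fold, rank and width of these peaks are what the genes were chosen on, so they are given as a description, without a test.

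The cells were NIH/3T3, an established line of mouse fibroblasts, with a stably integrated construct that doxycycline switches on: E2F1 in one line, and no insert in the other, the empty vector (EV) line. All cells, EV included, had been serum-starved for 48 hours and then given doxycycline for 12 hours. There were 2 libraries of each construct, and the labels also name 2 input DNA samples of the EV cells, which were not analysed here. Nothing in the labels says that the replicates came from separate cultures, or whether each line is a clone. The peak lists hold no expression, so neither the identity of the cells nor the induction of E2F1 could be checked on them, and a peak says nothing of the RNA of the gene below it. The E2f1 gene itself had a peak in both E2F1 lists (fold 34.0 and 38.8 in replicates 1 and 2) and in neither EV list. Only the E2F1 line carries the E2F1 construct, and whether reads from the construct enter this peak was not tested.

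HMG proteins fall into 3 subfamilies. HMGN proteins bind the nucleosome core and loosen chromatin in competition with linker histone H1, HMGB proteins bend DNA with a pair of HMG boxes, and HMGA proteins hold the minor groove of AT-rich DNA with short AT hooks. E2F1 is a transcription factor that drives genes of the G1/S transition, and several HMG proteins are most abundant in dividing or embryonic cells.

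Of the 9 genes, 7 had a peak in both E2F1 libraries and none had a peak in either EV library. Across all protein-coding genes, 34.4% had a peak by the same rule in both E2F1 libraries and 0.434% in either EV library. By library the 7 genes stood beside 36.9% of protein-coding genes in E2F1 replicate 1 and 38.2% in E2F1 replicate 2, and the 0 genes beside 0.0366% in EV replicate 1 and 0.407% in EV replicate 2. Nothing is read from these differences, since the genes were chosen on these lists. Hmgn3 and Hmgn5 had no peak. All peaks counted overlapped the gene itself, so the limit of 1000 bp was not what admitted them. The nearest E2F1 peak to Hmgn3 was 133903 bp away in replicate 1 and 133922 bp away in replicate 2, and the nearest to Hmgn5 was 1188239 and 1188151 bp away. The lists hold only peaks with a −log10 p above 10, so a gene without a peak is one without a listed peak, not one without signal. The closest EV peak to any of the 9 genes lay 149272 bp from Hmgn3, in EV replicate 2.

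**Figure D1:**
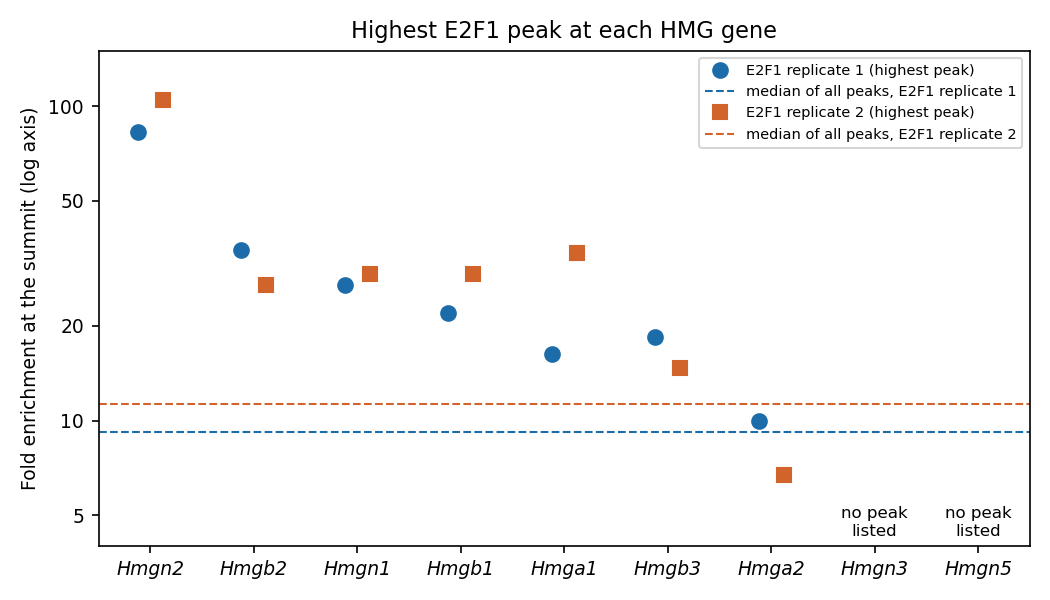
Fold enrichment of the highest peak at each HMG gene (vertical log axis) in E2F1 replicate 1 (circles) and E2F1 replicate 2 (squares), with dashed lines at the median fold of all peaks of each list. Hmgn2 lay above the other genes in both libraries, Hmga2 lay below the other genes with a peak in both, and Hmgn3 and Hmgn5 had no listed peak.

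Among the HMGN genes, Hmgn2, which encodes a small nucleosome-binding protein, carried the strongest peak. Its fold enrichment was 82.5 in E2F1 replicate 1 and 104.3 in E2F1 replicate 2. Fold is the authors' ratio of read pileup at the summit to local background, taken here with 1 added to each. The Hmgn2 fold was the highest of the whole list in replicate 1 and ranked 7 in replicate 2. The pileups recovered from fold and p were 311 and 319 reads, over local backgrounds of 2.78 and 2.07 reads. The medians over all peaks were 47 and 45 reads. The pileup at the Hmgn2 summit was thus similar in both libraries, and the difference in fold between them came with the lower background in replicate 2. The peak spanned chromosome 4, 133966896 to 133968557, in replicate 1 and 133966951 to 133968528 in replicate 2.

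The Hmgn2 peak lies over the start of that gene and not over the start of its neighbour. Dhdds, which encodes a subunit of dehydrodolichyl diphosphate synthase, is also within 1000 bp of the peak, 470 to 499 bp from its edge. Both genes are on the minus strand with 1036 bp between them, so this is the end of Dhdds, and the annotated Dhdds start was 32325 bp from the peak edge. The summits lay 523 and 533 bp downstream of the Hmgn2 start, inside the gene. They were 10 bp apart, against a median of 56 bp over 7138 pairs of overlapping peaks of the E2F1 libraries.

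The sequence before the Hmgn2 start is shown because it is the promoter under one of the strongest peaks of the study. RefSeq promoter windows of 300 bases, from 250 before to 50 after each annotated start on GRCm38.p6, were found for 8 of the 9 genes; Hmgn3 had no entry. Printed here are the 250 bases before the start and the first 10 of the gene, 5′ to 3′ on the strand of the gene. Capitals mark short words searched for on both strands: E2F words, the CCAAT box bound by the factor NF-Y, and the cell-cycle homology region (CHR), an element of many G2/M genes. The full E2F words were TTTCCCGC, TTTCGCGC, TTTGCCGC and TTTGGCGC, and shorter forms lacked 1 or 2 of the leading T letters. The CHR was searched for as TTTGAA and also in its variant form, TTCGAA. For Hmgn2 the window is chr4:133967982-133968241, minus strand.
Hmgn2: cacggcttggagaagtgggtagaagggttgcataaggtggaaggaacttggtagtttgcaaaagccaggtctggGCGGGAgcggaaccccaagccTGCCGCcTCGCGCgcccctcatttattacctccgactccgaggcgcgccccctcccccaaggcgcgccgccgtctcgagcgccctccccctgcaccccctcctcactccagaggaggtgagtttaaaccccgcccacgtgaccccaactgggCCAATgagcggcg

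No 8-letter or 7-letter E2F word was found in the Hmgn2 window. It held 3 of the 6-letter forms, the first at −176 to −171, the next at −155 to −150 and the last at −148 to −143, counted with the start as +1. It also held 1 CCAAT box, which begins 3 bases before the start. The summit lies outside the window, so the sequence under the highest signal is not shown by it. Such matches are common: 45.0% of 21263 windows of protein-coding genes held a 6-letter E2F word, and 77.5% of the 6256 windows under peaks of both E2F1 libraries did.

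Hmgn1, which encodes a close relative of the Hmgn2 protein, had the other HMGN peak. Its folds were 27.0 and 29.2, at ranks 382 and 888. The peak spanned chromosome 16, 96126547 to 96128225, in replicate 1 and 96126909 to 96128240 in replicate 2. Its summits were the closest to an annotated start of the 7 genes, 12 bp downstream in replicate 1 and 70 bp upstream in replicate 2. Pileups were 99 and 96 reads over backgrounds of 2.70 and 2.32. The fold at Hmgn2 was 3.05 times that at Hmgn1 within replicate 1 and 3.57 times within replicate 2.

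Hmgn5, an X-linked HMGN gene whose protein has a long acidic tail, and Hmgn3 lacked a listed peak in all 4 lists. The Hmgn5 promoter is shown as the only window of the family without a peak, at chrX:109013371-109013630, minus strand.
Hmgn5: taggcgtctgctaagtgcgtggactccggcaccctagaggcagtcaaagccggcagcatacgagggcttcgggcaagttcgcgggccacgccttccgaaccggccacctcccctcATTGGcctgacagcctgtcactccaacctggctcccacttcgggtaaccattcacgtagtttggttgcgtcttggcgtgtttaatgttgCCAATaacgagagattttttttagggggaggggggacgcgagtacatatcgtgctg

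The Hmgn5 window held 2 CCAAT boxes and no E2F word of 8, 7 or 6 letters, whereas each of the 7 genes with a peak had at least 1 word of 6 letters in a window. The 6-letter words were added after the data were seen, and 7 of 7 stands beside the 77.5% of all windows under peaks. The Hmgn5 window held 23 CpG dinucleotides. The median was 13 over all protein-coding windows and 27 over those under peaks of both libraries. Of 7641 windows with at least 20 CpG, 63.8% lay under peaks of both E2F1 libraries, against 10.1% of the 13622 windows with fewer. Hmga2, which had a peak in both E2F1 libraries, was among the latter with 12 CpG. Whether CpG or E2F words bear on the absence of a listed Hmgn5 peak was not tested.

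The HMGB genes all had peaks in both E2F1 libraries. Hmgb2, whose protein is abundant in proliferating cells, had folds of 34.9 and 26.9, at ranks 146 and 1046. Its peak was wide, 2910 bp in replicate 1 (chromosome 8, 57510918 to 57513827) and 3062 bp in replicate 2 (57510926 to 57513987). The pileups of 128 and 76 reads stood over backgrounds of 2.70 and 1.86. Both fold and pileup were lower in replicate 2, while over all overlapping pairs the fold in replicate 2 was a median of 1.26 times that in replicate 1. Summits were 572 and 524 bp downstream of the start. The long non-coding RNA gene 2500002B13Rik, on the plus strand, ended 655 to 663 bp from the peak edge.

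Hmgb1, whose protein also acts as an alarm signal when released from cells, had folds of 21.9 and 29.3, at ranks 693 and 878. The peak spanned chromosome 5, 149050881 to 149053733, in replicate 1 and 149050970 to 149053706 in replicate 2. RefSeq gives this gene more than 1 start, and the peak covered both windows completely. The summits fell between the starts, 996 and 1110 bp downstream of the outer start and 445 and 331 bp upstream of the inner one. The pileups were 91 and 85 reads.

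Hmgb3, an X-linked gene expressed in embryos and blood progenitors, had the weakest HMGB peak. Its folds were 18.4 and 14.7, at ranks 1103 and 2953, with pileups of 53 and 41 reads. Its summits were 495 bp apart, at 986 bp downstream of the start in replicate 1 and 491 bp in replicate 2, and 5.91% of overlapping pairs had summits more than 400 bp apart. In replicate 1 the peak began 24 bp inside the gene, on chromosome X from 71555941 to 71557470, and covered 26 of the 300 bases of the promoter window. In replicate 2 it ran from 71555637 to 71557413 and covered the whole window.

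The HMGB promoters are shown together because all 3 held at least 3 CCAAT boxes, which was noticed after the sequences were searched. Hmgb1 is given at its outer start, chr5:149053048-149053307, minus strand; Hmgb2 is chr8:57511593-57511852, plus strand; Hmgb3 is chrX:71555667-71555926, plus strand. Capitals are as above, and in Hmgb1 and Hmgb2 a CCAAT box overlaps an E2F word.
Hmgb1: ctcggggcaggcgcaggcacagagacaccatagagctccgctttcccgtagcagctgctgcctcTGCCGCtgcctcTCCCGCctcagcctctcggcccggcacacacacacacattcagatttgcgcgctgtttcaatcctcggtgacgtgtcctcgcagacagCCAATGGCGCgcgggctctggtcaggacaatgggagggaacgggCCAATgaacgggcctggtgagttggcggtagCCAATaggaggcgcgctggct
Hmgb2: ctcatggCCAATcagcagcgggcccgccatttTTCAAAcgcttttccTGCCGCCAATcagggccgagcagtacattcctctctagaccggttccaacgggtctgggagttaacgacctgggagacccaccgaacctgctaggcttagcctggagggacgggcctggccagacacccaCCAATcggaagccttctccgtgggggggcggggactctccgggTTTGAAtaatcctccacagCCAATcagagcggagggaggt
Hmgb3: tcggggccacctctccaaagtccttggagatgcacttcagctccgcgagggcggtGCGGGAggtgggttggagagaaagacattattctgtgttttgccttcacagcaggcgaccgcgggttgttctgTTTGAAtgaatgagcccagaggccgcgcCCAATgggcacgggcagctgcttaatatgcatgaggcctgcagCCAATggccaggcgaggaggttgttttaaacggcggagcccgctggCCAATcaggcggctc

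Hmgb2 held 4 CCAAT boxes, Hmgb1 3 and Hmgb3 3, all in the same orientation. Of all protein-coding windows, 3.92% held 3 or more and 1.25% held 4 or more, and of the windows under peaks of both E2F1 libraries 5.69% and 2.01% did. Hmgb2 also held 2 CHR words, at −30 to −25 and, on the other strand, at −218 to −213, and Hmgb3 held 1 at −122 to −117. A CHR word was found in 17.6% of all windows and in 11.4% of those under peaks of both E2F1 libraries. One together with 3 or more CCAAT boxes was found in 0.781% and 1.23%. The window at the inner Hmgb1 start held no CCAAT box, and none of the 3 genes held an E2F word of 8 or 7 letters.

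**Figure D2:**
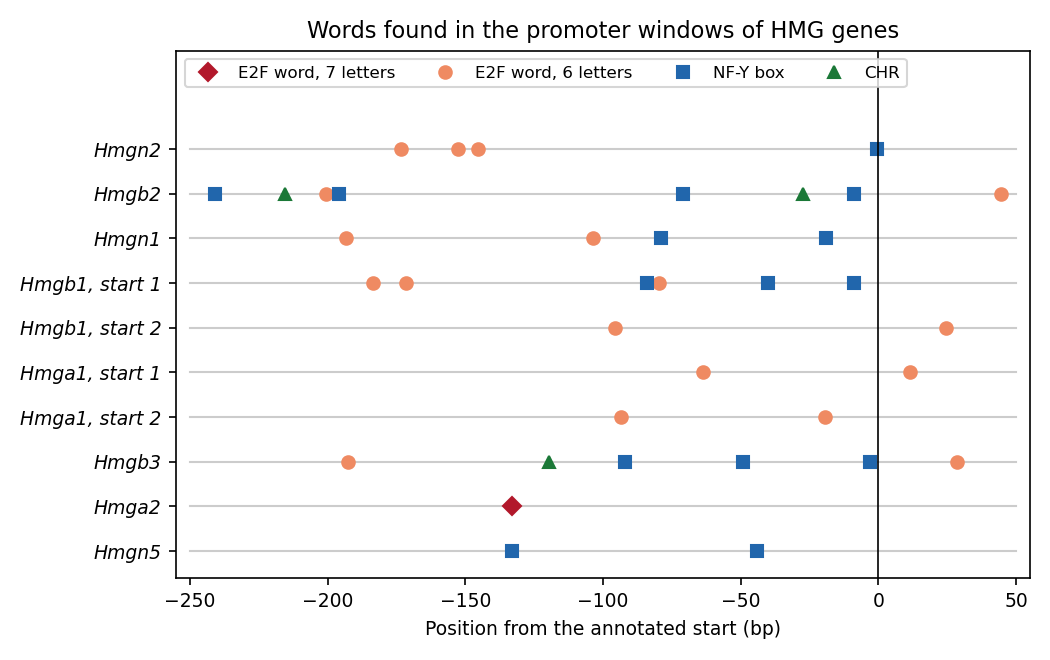
Positions of E2F words, CCAAT boxes (NF-Y box) and cell-cycle homology regions (CHR) in the promoter windows of 8 HMG genes, in bp from each annotated start, with 1 line per start. The HMGB genes carry rows of 3 or 4 NF-Y boxes, Hmga2 carries the only 7-letter E2F word, and Hmgn5 carries no E2F word.

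The HMGA genes both had peaks, of unlike strength. Hmga1, whose protein is plentiful in embryonic and transformed cells, had folds of 16.3 and 34.2, at ranks 1446 and 598. It was the gene of the family whose fold differed most between the libraries, 2.10 times, inside the range of 0.620 to 2.71 that held all but the lowest and highest 5% of overlapping pairs. The pileup was 97 reads over a background of 5.01 in replicate 1 and 138 reads over 3.06 in replicate 2. Its main peak was the widest of the family, 4975 bp in replicate 1 (chromosome 17, 27554726 to 27559700) and 3396 bp in replicate 2 (27555017 to 27558412). Replicate 1 listed 2 further peaks inside the gene, at 27560678 to 27561117 with a fold of 5.04 and at 27561457 to 27562174 with a fold of 8.09. Both ranked below the median of the list, at 7258 and 4637, and replicate 2 listed neither.

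Hmga2, whose mRNA is a well-known target of the let-7 microRNAs and whose loss gives the pygmy mouse, had the weakest peak of the 7. Its folds were 9.97 and 6.73, at ranks 3467 and 6408. The pileups of 48 and 50 reads were close to the list medians of 47 and 45. The local backgrounds of 3.92 and 6.58 reads were above those at Hmgn2, and in replicate 2 its place was lower by fold, at a percentile of 20.2, than by pileup, at 55.6. In replicate 1 it was at 55.8 by fold and 52.0 by pileup. Percentile here means the share of the other peaks of a list with a value at or below that of the peak. The peak was 3312 bp wide in replicate 1 (chromosome 10, 120474104 to 120477415) and 2866 bp in replicate 2 (120474825 to 120477690), with summits 535 and 563 bp upstream of the start.

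The Hmga2 promoter is shown because it was the only window of the family with an E2F word longer than 6 letters. It lies at chr10:120476460-120476719, minus strand, in a stretch rich in C and T.
Hmga2: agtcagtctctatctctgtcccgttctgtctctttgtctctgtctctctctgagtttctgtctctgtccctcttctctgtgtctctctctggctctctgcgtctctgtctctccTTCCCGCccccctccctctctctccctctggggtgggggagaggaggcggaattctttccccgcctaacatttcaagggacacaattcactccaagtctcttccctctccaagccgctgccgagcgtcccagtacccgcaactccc

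The word is TTCCCGC, at −136 to −130. Words of 7 letters were found in 12.1% of all windows and in 23.5% of those under peaks of both libraries, and the 8-letter words, found in none of the 8 genes, in 2.85% and 5.96%. The Hmga2 window had 12 CpG, the fewest of the family, while the other windows of genes with peaks had 20 to 45. The gene with the longest E2F word in its window had the weakest listed peak, and Hmgn2, with the strongest, had none of that length. A word in these windows is a match of letters, and the windows hold the summits of Hmgn1 and Hmga1 but not those of the other 5 genes with peaks.

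Ordered by fold within each list, Hmgn2 was the highest and Hmga2 the lowest of the 7 genes in both. In replicate 1 the order between them was Hmgb2, Hmgn1, Hmgb1, Hmgb3 and Hmga1. In replicate 2 it was Hmga1, Hmgb1, Hmgn1, Hmgb2 and Hmgb3. The means over the libraries were 93.4 ± 15.4 (SD, n = 2) for Hmgn2, 30.9 ± 5.60 (SD, n = 2) for Hmgb2, 28.1 ± 1.53 (SD, n = 2) for Hmgn1, 25.6 ± 5.20 (SD, n = 2) for Hmgb1 and 25.2 ± 12.7 (SD, n = 2) for Hmga1. They were 16.6 ± 2.65 (SD, n = 2) for Hmgb3 and 8.35 ± 2.29 (SD, n = 2) for Hmga2. Both Hmgn2 values lay above every value of the others, and both Hmga2 values below. The values of Hmgb2, Hmgn1, Hmgb1 and Hmga1 overlapped and their order changed between the lists, so no order among them is drawn. Those of Hmgb3 overlapped the Hmga1 range. The SD also holds any difference in scale between the lists, whose overlapping pairs had a median fold ratio of 1.26, replicate 2 over 1.

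**Figure D3:**
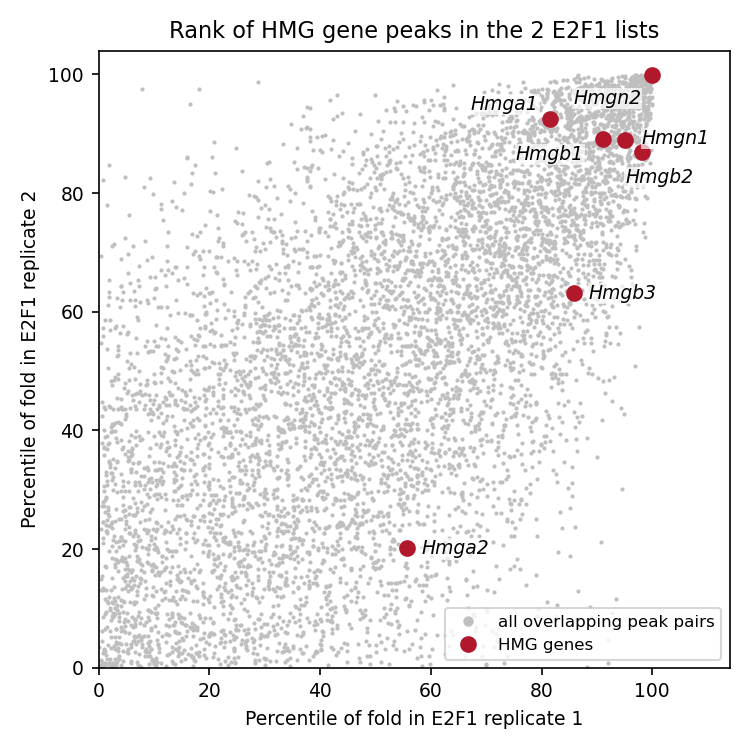
Percentile of fold in E2F1 replicate 1 (horizontal) against E2F1 replicate 2 (vertical) for the 7138 pairs of overlapping peaks (grey) and for the highest peak of each HMG gene (red). Hmgn2 sits in the top corner, Hmgb2, Hmgn1, Hmgb1 and Hmga1 lie above a percentile of 80 in both lists, and Hmga2 falls to 20.2 in replicate 2.

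In percentiles, the 7 peaks had a median fold of 91.2 in replicate 1 and 88.9 in replicate 2. The medians over all protein-coding genes with a peak were 54.1 and 53.2. Fold was above the list median at 7 of 7 genes in replicate 1 and at 6 of 7 in replicate 2, where Hmga2 was the exception. Of protein-coding genes with a peak, 54.4% and 53.2% were above it. By pileup the medians of the 7 were 86.1 and 81.2. Members without a listed peak do not enter these medians.

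The peaks at these genes were wide. The width of the highest peak ran from 1530 to 4975 bp in replicate 1 and from 1332 to 3396 bp in replicate 2, with medians of 2853 and 2737 bp. Protein-coding genes with a peak had medians of 974 and 844 bp. All 7 genes were above the list median in both lists, with the lowest at percentiles of 80.5 (Hmgb3, replicate 1) and 83.8 (Hmgn1, replicate 2). Width did not follow fold among them: Hmga2, weakest by fold, was at percentiles of 99.2 and 99.4 by width, and Hmgn2, strongest by fold, at 84.7 and 91.4.

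**Figure D4:**
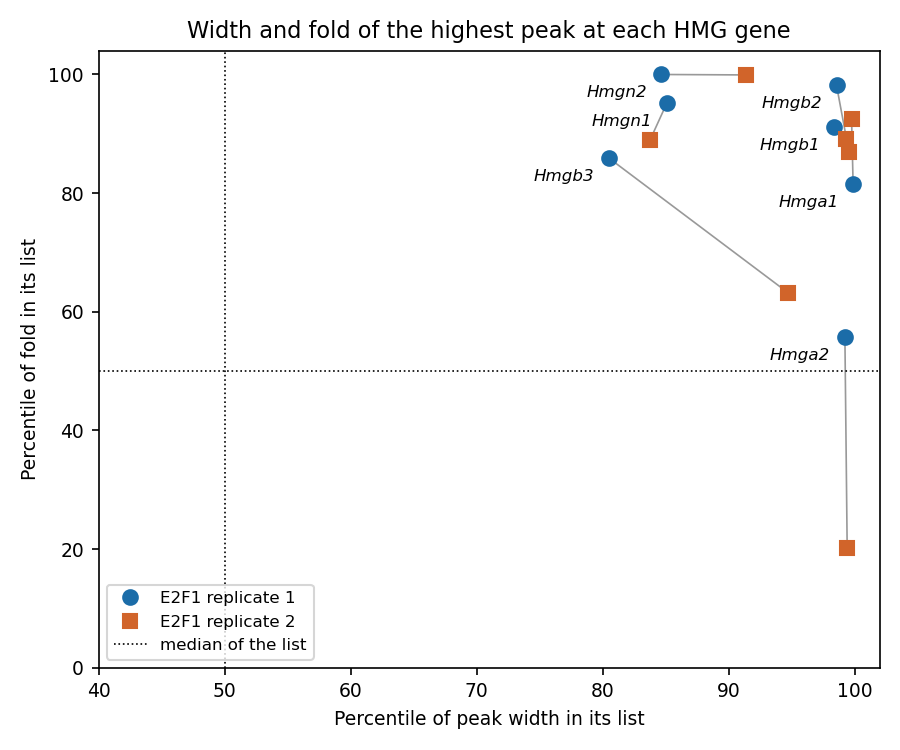
Percentile of peak width (horizontal, drawn from 40) against percentile of fold (vertical) within each list for the highest peak of the 7 HMG genes, with lines joining E2F1 replicate 1 (circles) to E2F1 replicate 2 (squares) and dotted lines at the list medians. All points lie right of the width median, and Hmga2 in replicate 2 lies below the fold median.

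Summits of these peaks often lay away from annotated starts. In each library 5 of the 7 genes had the summit over 300 bp from every annotated start, and the median distance was 523 bp in replicate 1 and 491 bp in replicate 2. Over protein-coding genes with a peak and a start in the table, 27.3% and 22.2% had the summit so far away, with median distances of 190 and 147 bp. Hmgn1 and Hmga1 were the 2 genes with closer summits in both libraries.

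The 3 genes with fold percentiles closest to those of Hmgn2 over the 2 E2F1 lists were Pds5a, 8030462N17Rik and Dek. Pds5a, a regulator of cohesin, had folds of 67.5 and 104.3. For 8030462N17Rik they were 68.0 and 92.0. Dek, which encodes another abundant chromatin protein, had folds of 73.3 and 90.6.

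Relatives and partners of the HMG proteins were looked up in 5 lists written by symbol, all 50 genes being found in the table. Of 22 other genes with an HMG box, 16 had a peak in both E2F1 libraries and none in an EV library. Of protein-coding genes, 34.4% and 0.434% did. The highest by fold percentile were Ssrp1, a subunit of the histone chaperone FACT, with folds of 57.9 and 71.7 (ranks 14 and 44), and Hmgxb4, with folds of 29.8 and 46.5. Among these 22 genes and the 3 HMGB genes, Ssrp1 was thus nearest to Hmgn2 by fold in both lists. The other 6 had no peak in either E2F1 library.

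Of 11 linker histone genes, whose products share binding sites on nucleosomes with HMGN proteins, 4 had a peak in both E2F1 libraries. This count and those of the lists below stand beside the 34.4% of protein-coding genes that did, and nothing is read from them. These 4 linker histone genes were all below Hmgn1 and Hmgn2 by fold. The highest was H1f0, a linker histone gene outside the replication-dependent clusters, with folds of 13.3 and 14.5, followed by H1f2 with 8.31 and 8.05. Hmgb2 protein is part of the SET complex, and 4 of 5 genes of its partners had a peak, led by Set (14.8 and 36.4) and Anp32a (19.9 and 13.3), with Trex1 the exception. Of 8 genes that act on let-7 or on Hmga2 mRNA, 6 had a peak. The highest were Tut4, an enzyme that uridylates let-7 precursors, at 22.4 and 37.6, and Igf2bp2, an RNA-binding protein, at 15.9 and 31.4. Lin28a and Lin28b had none. None of the 4 genes of HMGB1 receptors, Ager, Tlr2, Tlr4 and Cxcr4, had a peak. Over all 5 lists, 30 of 50 genes had a peak in both E2F1 libraries, beside 34.4% of protein-coding genes.

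HMG genes have many copies in the mouse genome, and reads from near-identical copies can be placed on more than 1 of them. RefSeq names 20 other loci Hmga, Hmgb or Hmgn, 17 of them pseudogenes. None had a peak in any of the 4 lists. A peak in both E2F1 libraries was found at 18.0% of all genes of the table and at 34.4% of protein-coding genes. The share over pseudogenes alone was not computed, so nothing is read from the absence at these loci. How reads with several placements were treated is not given, so misplacement of reads was not tested by the count at these loci.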

How the data were processed

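Peak lists of E2F1 ChIP-seq were taken as deposited, 1 per library, for 2 E2F1 and 2 EV libraries, with groups and replicate numbers from the sample titles. The submitters' processing notes name FastQC, Trimmomatic, Bowtie2, MACS2 and ChIPseeker and the build mm10, without versions or roles; the antibody, the control of each list and the calling parameters are not given in the sources used here, and neither is how reads with several placements were treated. The protocols in the labels describe RNA libraries only.

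The lists follow the narrowPeak layout of 10 columns. The deposited fold enrichment is the ratio of pileup to local background at the summit, taken here with 1 added to each. Each peak also has a deposited −log10 of its p-value and of its q-value, and the score is the authors' whole-number form of the latter. Fold is scaled to each peak's own background and was ranked only within a list. Means and SD over the E2F1 lists use the deposited folds, without scaling between lists. The summit is the deposited offset from the peak start. The smallest −log10 p of each list lay just above 10, so weaker sites are missing.

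Pileup and background were solved from fold and p, taking fold as pileup plus 1 over background plus 1 and p as a Poisson tail, as MACS2 writes them. A whole-number pileup within 5% of a step fitted 99.99% (E2F1 replicate 1), 99.98% (E2F1 replicate 2), 95.7% (EV replicate 1) and 99.7% (EV replicate 2) of peaks. The lowest background, the only measure of depth here, was 1.85, 1.86, 2.20 and 1.18 reads in the same order. The solver, the overlap search and the word search were tested on simulated data. Scripts ran in Python 3.11.15 with numpy 2.4.6, pandas 2.3.3 and scipy 1.17.1.

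Genes were matched by symbol in RefSeq tables of GRCm38.p6, the assembly of mm10. With 2 libraries per group and genes chosen on these lists, no test was run. The genes and lists were chosen with earlier results of these data known. Named are the 9 genes, the 2 genes of each list with the highest mean fold percentile, genes of a list without a peak where 5 or fewer, genes within 1000 bp of a member's peak, the 3 genes most like Hmgn2 and E2f1. Alternatives changed the distance, the threshold, the shared-peak definition, the ranking measure, the words and the libraries.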

Additional observations from a re-analysis of the deposited data

How the results depend on the processing

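Over 7 results, 39 alternatives were computed, and 26 stayed within 1.5 times the count or within the spread of the libraries. Some of the 26 were bound to stay. For the percentile results, leaving out 1 library returns an end of that spread. All re-rankings by −log10 q, score or pileup moved outside it. Every alternative for the share of protein-coding genes also counted as moved, though 32.9%, 33.1% and 35.5% lie near the main 34.4%. By library that share was 36.9% and 38.2%, so the main value itself lay outside the spread of the libraries. The number of HMG genes with a peak in both E2F1 libraries was 6 or 7 under all 11 alternatives run. The number with a peak in either EV library was 0 under all 6, but it could not have moved. The closest EV peak lay 149272 bp away, beyond any distance tried, and the other alternatives only removed peaks. The mean percentile of the Hmgn2 peak was 99.96 by fold, 99.86 by −log10 q or by score and 99.67 by recovered pileup, and ran from 99.93 to 100 without 1 library. The median percentile of the genes' highest peaks was 90.1 by fold, 86.3 by −log10 q and 83.6 by pileup, and ran from 88.9 to 91.2 without 1 library. The share of protein-coding genes with a peak was 32.9% at 0 bp, 35.5% at 2500 bp, 17.1% with only peaks that reached the median score of their list, 18.0% over all genes of the table and 33.1% within 1000 bp of an annotated start, the last chosen after the data were examined. The number of HMG genes with an E2F word was 0 with 8 letters, 1 with 7 and 7 with 6, the last added after the data were examined; shorter words match more often by construction. Of the 50 listed relatives, 30 had a peak, or 18 with only peaks that reached that median, an alternative also added later. No paired analysis was possible because the results come from no test. Words within 150 bases of the summits were not searched for want of a genome here. Depth limits every absence: the lists hold no site below their p-value filter.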
